A study of Homo sapiens with 4 samples.

Results

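The transcription factors that drive epithelial-to-mesenchymal transition (EMT) were examined in the RNA-seq of MCF12A cells. They were chosen by name as *ZEB1*, *ZEB2*, *SNAI1*, *SNAI2*, *TWIST1*, *TWIST2*, *PRRX1*, *TCF4* and *TCF3*, and 8 of these 9 genes had a row among the 16811 genes of the expression table. *PRRX1*, which encodes a paired-related homeobox factor, had no row, and its expression was not analysed here. MCF12A is an immortalised, non-tumorigenic human mammary epithelial line, although 1 label calls the cells a breast cancer line. The study compared 2 libraries of cells labelled C1orf132 KO with 2 libraries of wild-type cells. In the edited cells, CRISPR/Cas9 had removed the p2 promoter of *C1orf132*, the long non-coding host transcript of miR-29 genes. Edited colonies were grown from single sorted cells, and the labels do not say whether both edited libraries came from 1 colony. The study calls the libraries of a group biological replicates. Both groups were grown in the same medium with horse serum, EGF, insulin, hydrocortisone and cholera toxin. The edited locus itself was not analysed here, so the groups rest on the labels.

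EMT is the programme by which epithelial cells give up their junctions and polarity and take on a motile, mesenchymal form. ZEB, SNAIL and TWIST family proteins bind E-boxes, short DNA motifs in promoters. At E-cadherin and other epithelial genes they recruit corepressors and shut transcription down. TWIST proteins pair with the E proteins encoded by *TCF3* and *TCF4* to bind DNA. In mammary epithelium, ZEB factors and epithelial microRNAs repress each other, while *SNAI2* is known as a factor of normal basal cells. *TCF4* here is the E protein E2-2, not the Wnt effector encoded by *TCF7L2*.

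The values are an expression signal whose normalization is not given in the sources used here. They behave as if scaled for transcript length and for each library. Comparisons of levels between genes rest on that inference. The library sums ranged from 1444640 to 1655440, and relative to edited replicate 1 the depth was 1.12 in the other edited library and 0.930 and 1.00 in the wild-type libraries. Pearson's r of log2 values over genes was 0.973 within each group. Of 13 mammary epithelial markers, 13 had a row, and their summed signal was 12379 and 21190 in wild-type against 5158 and 6876 in edited libraries. *CDH1* and *TP63* of that list fell and *KRT8* rose. By log2 fold change, 10 of the 13 were lower and 3 higher (*KRT8*, *KRT18* and *GATA3*). Most of the sum came from *KRT5* and *KRT17*. *KRT5* was 3514 and 3056 in edited and 4590 and 11914 in wild-type libraries and was not called (adjusted p = 0.187 from limma). Of 11 fibroblast markers, 3 had a row (*COL1A1*, *DCN* and *FAP*), with sums of 30.5 and 225 in edited and 78.0 and 52.3 in wild-type libraries. None of 6 endothelial markers and 2 of 6 immune markers (*CD14* and *CD68*) had a row. The part of these cell types in the results was not tested. In these bulk libraries, a change in the share of cells that express a gene and a change in RNA per cell cannot be told apart.

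Of the 8 EMT factors measured, *ZEB1* and *TWIST2* rose in edited cells, none fell, and 6 did not pass the test. At an unadjusted p under 0.05 there were 4, which adds *ZEB2* and *TCF3*, against 29.2% of all genes. Of these, *ZEB2* has a row only through the edited group, as its wild-type mean lay under the lowest mean of a listed gene (0.538). The call was an adjusted p under 0.05 from limma on log2(signal + 1), fitted over all genes. Among all 16811 genes, 1.33% were called higher and 3.40% lower, 4.73% in either direction. The edited libraries lay above both wild-type libraries for 4 factors (*ZEB1*, *ZEB2*, *TWIST2* and *TCF3*) and below for 1 (*TCF4*), and they overlapped for *SNAI1*, *SNAI2* and *TWIST1*. Over all genes, 61.6% were separated, 31.4% upwards and 30.2% downwards. The median log2 fold change was 0.43 over the 8 factors (0.29 without edited replicate 2, 0.65 without wild-type replicate 1) and 0.01 over all genes. A mean signal of at least 10 was reached by 4 of the factors (*SNAI2*, *TWIST1*, *TWIST2* and *TCF3*), and the other 4 lay below it.

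**Figure D1:**
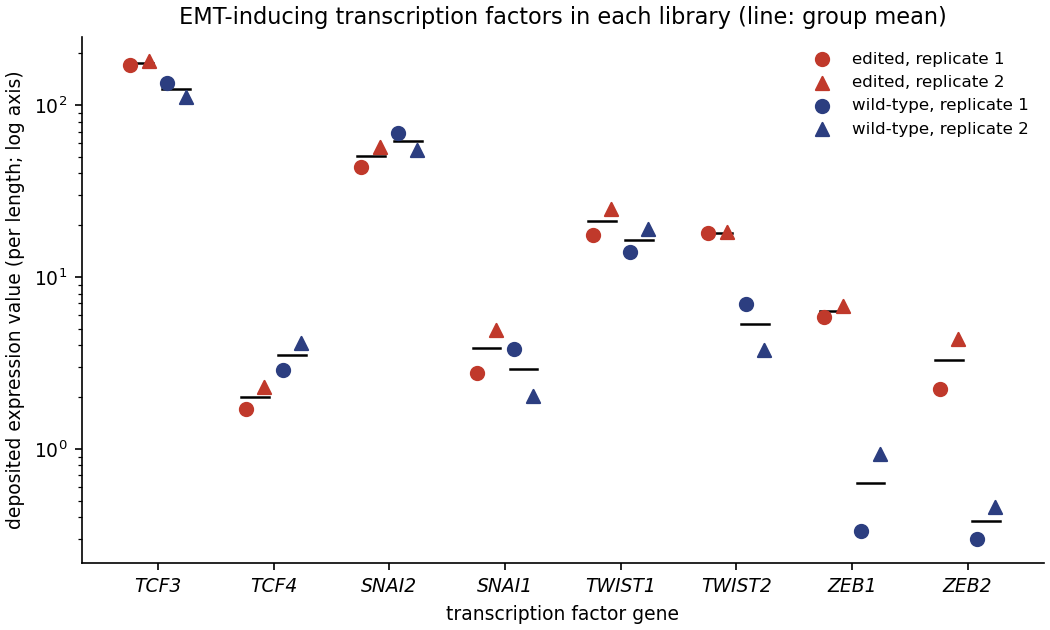
Expression signal of the 8 EMT transcription factors (log axis) in each of the 2 edited and 2 wild-type libraries, 1 point per library. *ZEB1* was 5.83 and 6.80 in edited against 0.333 and 0.927 in wild-type libraries, whereas the libraries of *SNAI1*, *SNAI2* and *TWIST1* overlapped.

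*ZEB1* encodes a zinc-finger and homeodomain repressor of *CDH1* and of the miR-200 genes. It lies on chromosome 10 from 31318417 to 31529804 (GRCh38.p14). Its signal was 5.83 and 6.80 in the edited libraries and 0.333 and 0.927 in the wild-type libraries. The lowest edited library was thus well above the highest wild-type library. The means were 6.31 ± 0.683 (SD, n = 2) and 0.630 ± 0.420 (SD, n = 2), a ratio of 10.0, and leaving out wild-type replicate 2 raised the ratio to 19.0 while leaving out wild-type replicate 1 lowered it to 6.81. The log2 fold change was 2.19 ± 0.29 (SE; 95% confidence interval 1.46 to 2.92; adjusted p = 0.0307 from limma). Reads recovered from the ratios between libraries came to at least 339 and 443 in edited and at least 18 and 54 in wild-type libraries. These are lower bounds, and the low wild-type level may rest on few reads. The call was lost without any 1 of the 4 libraries: adjusted p was 0.0833 to 0.182, with a log2 fold change of 1.92 to 2.45. *ZEB1* ranked at the 1.56 percentile of all listed genes in wild-type and at the 36.6 percentile in edited cells. No listed gene had a mean under 0.538 over the 4 libraries, so these percentiles leave out genes low in both groups.

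*ZEB1-AS1* is the only annotated gene on the opposite strand of *ZEB1*, or within 1 kb of it, that had a row, and it was named after its values were seen. Its signal was 4.40 and 3.21 in edited and 4.55 and 5.58 in wild-type libraries (log2 fold change -0.34 ± 0.25 SE, adjusted p = 0.413 from limma). It lay above *ZEB1* in both wild-type libraries and below it in both edited libraries. The libraries are not stated to keep strand, so reads from overlapping stretches of the pair cannot be told apart.

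*ZEB2* encodes the paralog of ZEB1 and shares its E-box binding. Its gene lies on chromosome 2 from 144384081 to 144520119. The signal was 2.21 and 4.36 in edited and 0.299 and 0.456 in wild-type libraries, with no overlap. The means were 3.29 ± 1.52 (SD, n = 2) and 0.378 ± 0.111 (SD, n = 2), a ratio of 8.70. Its log2 fold change of 1.59 ± 0.34 (SE; 95% confidence interval 0.74 to 2.44) missed the threshold (adjusted p = 0.0604 from limma), with an unadjusted p of 0.00454. The wild-type mean lay under 0.538, the lowest mean of a listed gene over the 4 libraries. *ZEB2* thus has a row only through the edited group, and an unchanged gene at its wild-type level would have had none. Recovered reads were at least 184 and 406 against 23.1 and 38.0. The edited libraries differed from each other more than for *ZEB1*, so that leaving out edited replicate 2 gave a ratio of 5.86, and leaving out edited replicate 1 gave 11.5.

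The basic helix-loop-helix factor gene *TWIST2* lies on chromosome 2 from 238848085 to 238910534. Its signal was 17.9 and 18.3 in edited and 6.92 and 3.77 in wild-type libraries. The edited libraries were nearly equal, and the spread lay in the wild-type libraries. The means were 18.1 ± 0.316 (SD, n = 2) and 5.35 ± 2.23 (SD, n = 2), a ratio of 3.39. The log2 fold change was 1.64 ± 0.30 (SE; 95% confidence interval 0.88 to 2.39; adjusted p = 0.0488 from limma), just under the threshold. Leaving out any 1 library ended the call (adjusted p = 0.112 to 0.224, log2 fold change 1.27 to 2.00). Recovered reads were at least 161 and 185 in edited and at least 58 and 34 in wild-type libraries.

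*TWIST1*, its paralog and the better-known EMT inducer, lies on chromosome 7 from 19113047 to 19117636. Its signal was 17.5 and 24.9 in edited and 13.9 and 19.0 in wild-type libraries. The groups overlapped, and each group's replicates differed by more than the group means did. On the log2 scale, the fold change was 0.35 ± 0.27 (SE; 95% confidence interval -0.33 to 1.02; adjusted p = 0.432 from limma).

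*SNAI2* encodes SLUG, a zinc-finger repressor of the SNAIL family, and lies on chromosome 8 from 48917598 to 48921429. Its signal was 43.5 and 57.0 in edited and 68.5 and 55.0 in wild-type libraries. The groups overlapped, and the lowest library was an edited one. The means were 50.3 ± 9.53 (SD, n = 2) and 61.8 ± 9.56 (SD, n = 2). Edited against wild-type, this was a log2 fold change of -0.30 ± 0.22 (SE; 95% confidence interval -0.86 to 0.27; adjusted p = 0.423 from limma).

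*SNAI1*, which encodes SNAIL and lies on chromosome 20 from 49982980 to 49988886, was low in every library. Its signal was 2.76 and 4.93 in edited and 3.81 and 2.02 in wild-type libraries, resting on at least 71, 142, 91 and 52 recovered reads. The highest and lowest libraries were edited replicate 2 and wild-type replicate 2. The log2 fold change was 0.31 ± 0.36 (SE; 95% confidence interval -0.61 to 1.23; adjusted p = 0.618 from limma). Without edited replicate 2 it was -0.02 and without wild-type replicate 2 it was -0.03, so no direction can be given.

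The E protein gene *TCF3* (E2A), on chromosome 19 from 1609292 to 1652615, had the highest signal of the factors in every library. Its signal was 172 and 181 in edited and 135 and 111 in wild-type libraries. Both edited libraries lay above both wild-type libraries, at a mean of 176 ± 6.70 (SD, n = 2) against 123 ± 16.5 (SD, n = 2), a ratio of 1.43. Its log2 fold change of 0.52 ± 0.18 (SE; 95% confidence interval 0.05 to 0.99) did not pass the adjustment (adjusted p = 0.140 from limma, unadjusted p = 0.0347). A U6 pseudogene annotated on the same strand, *RNU6-1223P*, had a row with values from 0 to 2.92, and reads shared with it cannot be told apart.

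*TCF4*, on chromosome 18 from 55222185 to 55635957, was the only factor whose edited libraries lay below both wild-type libraries. Its signal was 1.70 and 2.28 in edited and 2.87 and 4.15 in wild-type libraries, a ratio of 0.567. This gave a log2 fold change of -0.59 ± 0.27 (SE; 95% confidence interval -1.28 to 0.11; adjusted p = 0.224 from limma).

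**Figure D2:**
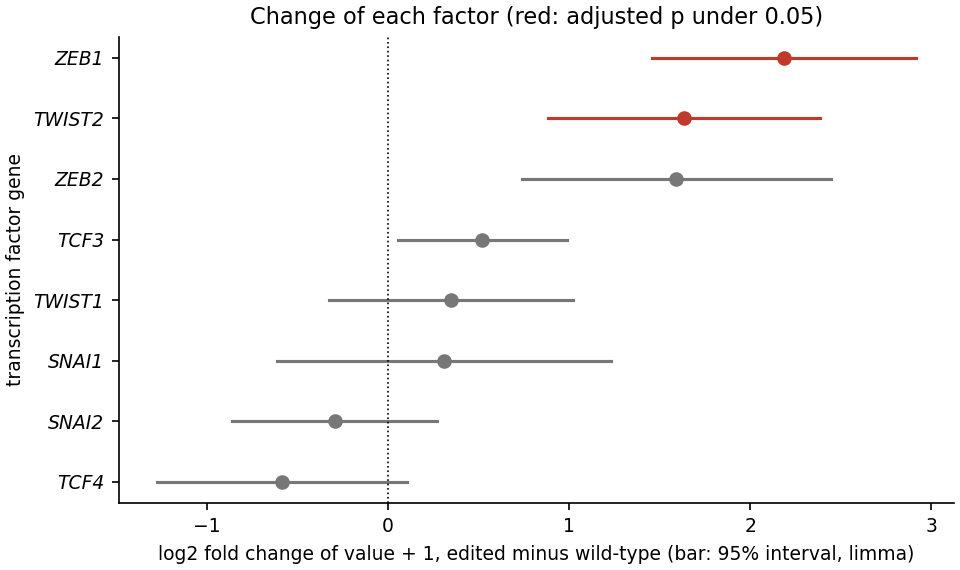
Log2 fold change, edited against wild-type, of the 8 EMT transcription factors from limma on log2(signal + 1), with 95% confidence intervals. *ZEB1* at 2.19 and *TWIST2* at 1.64 passed an adjusted p of 0.05, while *ZEB2* at 1.59 did not. This scale understates changes of low genes: the ratio of mean signals was 8.70 for *ZEB2* and 3.39 for *TWIST2*.

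In wild-type cells, the order of the factors by mean signal was *TCF3* (123), *SNAI2* (61.8), *TWIST1* (16.4), *TWIST2* (5.35), *TCF4* (3.51), *SNAI1* (2.91), *ZEB1* (0.630) and *ZEB2* (0.378). Neighbours whose libraries overlapped were *TWIST2* with *TCF4*, *TCF4* with *SNAI1*, and *ZEB1* with *ZEB2*. In edited cells the first 3 places were the same, followed by *TWIST2* (18.1), *ZEB1* (6.31), *SNAI1* (3.84), *ZEB2* (3.29) and *TCF4* (1.99). There, *TWIST1* overlapped *TWIST2*, *SNAI1* overlapped *ZEB2*, and *ZEB2* overlapped *TCF4*. *ZEB1* thus stood next to last of the factors in wild-type cells and above *SNAI1*, *ZEB2* and *TCF4* in edited cells. Leaving out the E proteins, *SNAI2* had the highest signal in both groups, at a mean of 50.3 in edited and 61.8 in wild-type cells.

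Within each paralog pair, the share of the members was compared by the ratio of their signals in each library. With 2 libraries against 2, the smallest p that an exact permutation test can give is 0.333, so these ratios could not pass a test. *ZEB1* exceeded *ZEB2* by 2.63 and 1.56 times in edited and 1.11 and 2.03 times in wild-type libraries, and the groups overlapped (exact permutation p = 0.667, two-sided). Their summed signal was 8.05 and 11.2 against 0.632 and 1.38. The ratio of *TWIST2* to *TWIST1* was 1.02 and 0.735 in edited and 0.499 and 0.198 in wild-type libraries, without overlap (exact permutation p = 0.333, two-sided). *SNAI2* exceeded *SNAI1* by 15.8 and 11.6 times in edited and 18.0 and 27.2 times in wild-type libraries, and *TCF3* exceeded *TCF4* by 101 and 79.5 against 46.9 and 26.9 times (exact permutation p = 0.333 for each, two-sided). These last ratios also did not overlap between the groups.

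**Figure D3:**
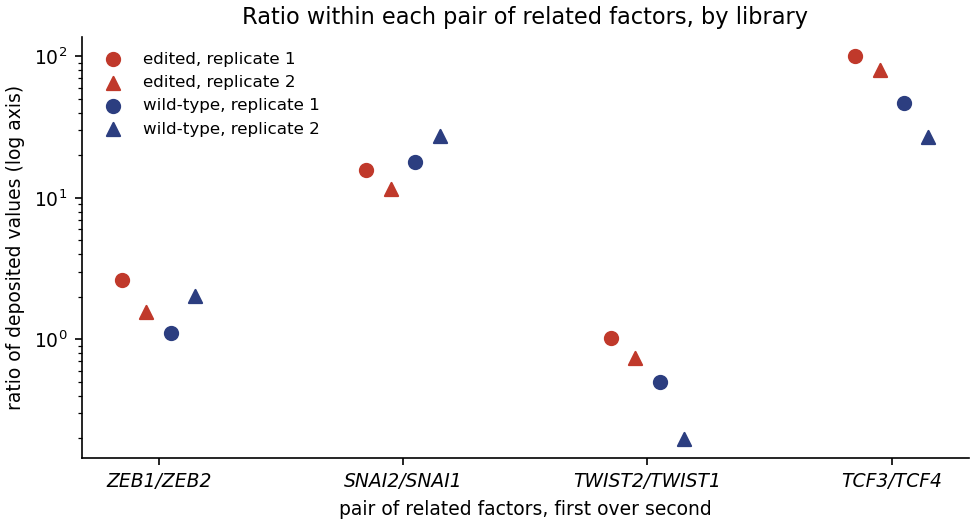
Ratio of the signals of the members of each paralog pair (log axis) in each of the 2 edited and 2 wild-type libraries. The ratio of *TWIST2* to *TWIST1* was 1.02 and 0.735 in edited against 0.499 and 0.198 in wild-type libraries, while the ratios of *ZEB1* to *ZEB2* overlapped.

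The genes that act with or on the EMT factors were examined next. Of 38 partners, cofactors and regulators, 33 had a row: none was called higher and 4 lower, against 1.33% and 3.40% of all genes, and the median log2 fold change was 0.01, as over all genes. None of the 4 E-protein partners and inhibitors was called. *TCF12*, another E protein, was 52.6 and 61.3 in edited and 57.3 and 55.3 in wild-type libraries (log2 fold change 0.01 ± 0.18 SE). The inhibitors *ID1*, *ID2* and *ID3*, which capture E proteins away from TWIST, overlapped between the groups, and *ID2* ranged from 14.8 to 59.0 within the wild-type group. None of the 11 corepressors and chromatin enzymes was called either. *CTBP1*, the corepressor that ZEB proteins bind, was 166 and 154 in edited and 123 and 114 in wild-type libraries (log2 fold change 0.43 ± 0.17 SE, adjusted p = 0.166 from limma). Its paralog *CTBP2* had a log2 fold change of 0.29 ± 0.18 (SE; adjusted p = 0.318 from limma). Nor was any of 6 genes that control SNAIL protein stability or of 7 other EMT-linked transcription factors called. At an unadjusted p under 0.05 there were 0 genes among the E-protein partners, 3 among the corepressors, 1 among the stability genes and 3 among the other transcription factors, against 29.2% of all genes.

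All 4 called members of that list were epithelial factors that restrain the EMT inducers, of which 5 of 7 had a row. *GRHL2*, a grainyhead factor that represses *ZEB1*, was 26.0 and 26.2 in wild-type but 0.137 and 0.0460 in edited libraries (log2 fold change -4.64 ± 0.22 SE, adjusted p = 0.00450 from limma), where it rested on at least 2.67 and 1 recovered reads. *ELF3*, an epithelial ETS factor, fell from 681 and 633 to 50.7 and 35.1 (log2 fold change -3.93 ± 0.23 SE, adjusted p = 0.00632 from limma). *OVOL1*, a zinc-finger repressor of EMT inducers, was 2.57 and 2.46 in wild-type and 0.128 and 0.0163 in edited libraries (log2 fold change -1.72 ± 0.26 SE, adjusted p = 0.0371 from limma). *OVOL2*, its paralog and a repressor of *ZEB1*, was 13.6 and 4.98 in wild-type and 1.03 and 0.460 in edited libraries but did not pass (log2 fold change -2.44 ± 0.48 SE, adjusted p = 0.0547 from limma). For these 5 genes the edited libraries lay below both wild-type libraries, as for 30.2% of all genes. *GRHL2* and *OVOL1* had edited means of 0.0917 and 0.0720, under the lowest mean of a listed gene (0.538). Both thus have a row only through the wild-type group. All 4 calls were lost without wild-type replicate 1 or without wild-type replicate 2, while 2 genes were called without either edited library. The summed signal of the mammary epithelial markers, most of it from *KRT5* and *KRT17*, was also lower in both edited libraries (5158 and 6876 against 12379 and 21190). Its part in the result was not tested.

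*MIR205HG*, the host transcript of miR-205, was 203 and 297 in edited and 815 and 748 in wild-type libraries (log2 fold change -1.66 ± 0.24 SE, adjusted p = 0.0361 from limma). MiR-205 is an epithelial microRNA that targets *ZEB1* and *ZEB2*. The mature sequence from RefSeq (GRCh38.p14, plus strand of chromosome 1, chr1:209432166-209432187) is shown because its seed pairs with ZEB transcripts. The seed, bases 2 to 8, is in capitals.
hsa-miR-205-5p: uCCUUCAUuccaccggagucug
These libraries measured the polyadenylated host transcript and not the mature microRNA. *MIR200CHG*, the host of part of the miR-200 family, had no row, so its expression was not analysed here.

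The E-box target list held 29 epithelial genes known to be repressed through E-boxes by ZEB, SNAIL, TWIST or E proteins, of which 27 had a row. Of these, 13 were called lower and none higher, 14 were not called, and the median log2 fold change was -1.75. At an unadjusted p under 0.05 there were 20, against 29.2% of all genes. They include *PKP2*, which was higher, at 19.8 and 24.2 in edited and 12.8 and 10.4 in wild-type libraries. Of the 27 genes, 23 had a negative and 4 a positive log2 fold change. Edited libraries lay below both wild-type libraries for 20 genes and above for 2 (*PKP2* and *ESRP2*), against 30.2% and 31.4% of all genes. The background over all genes was 3.40% called lower, and the list was written with results of these data known. The called genes *ST14*, *MARVELD3*, *TJP3* and *GJB2* had edited means of 0.521, 0.413, 0.354 and 0.160. These lay under 0.538, the lowest mean of a listed gene. Such genes have a row only through the wild-type group, and an unchanged gene at that edited level would have had none. *CDH1*, which encodes E-cadherin of the adherens junction, fell from 150 and 123 to 3.89 and 1.54 (log2 fold change -5.28 ± 0.35 SE, adjusted p = 0.00757 from limma). *RAB25*, an epithelial GTPase of apical recycling, fell from 477 and 374 to 4.62 and 0.589 (log2 fold change -7.15 ± 0.60 SE, adjusted p = 0.0128 from limma). *ESRP1*, the epithelial splicing regulator, fell from 262 and 229 to 5.19 and 1.79 (log2 fold change -5.89 ± 0.40 SE). The membrane protease gene *ST14* fell from 46.8 and 44.7 to 0.721 and 0.322, and the tight-junction gene *CLDN7* from 176 and 93.3 to 9.08 and 3.60. *EPCAM* was 57.6 and 27.8 in wild-type and 9.93 and 5.29 in edited libraries and did not pass (adjusted p = 0.0522 from limma). The 13 calls went to 4 without edited replicate 1, 8 without edited replicate 2, and 0 without either wild-type library.

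**Figure D4:**
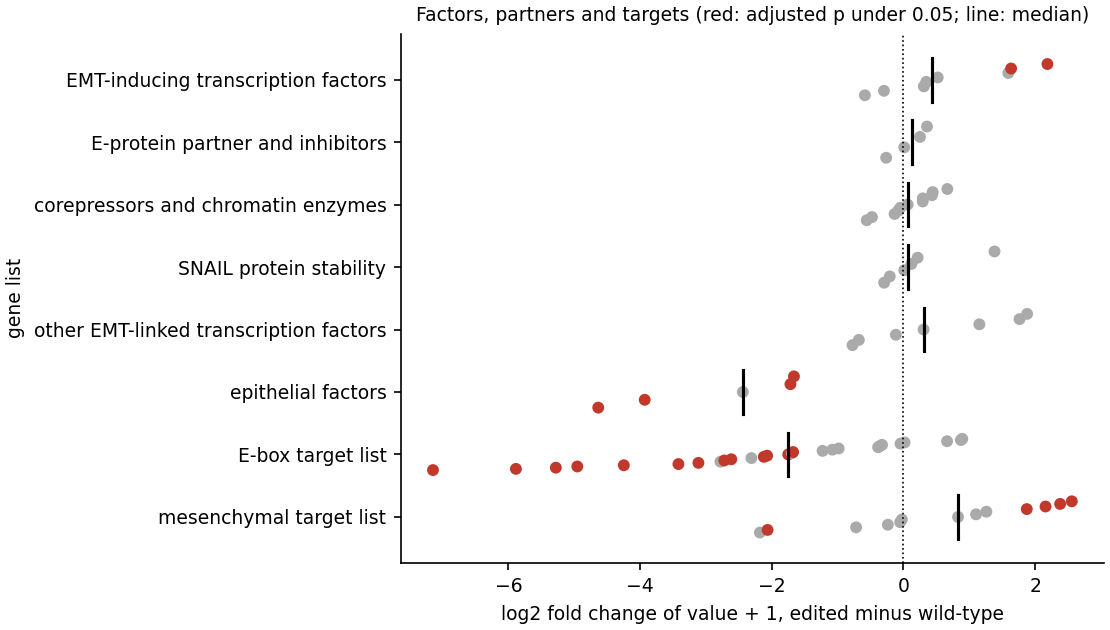
Log2 fold change, edited against wild-type, of each gene in the 8 EMT factors, 5 groups of partners and regulators, the E-box targets and the mesenchymal readouts, with 1 point per gene, red at an adjusted p under 0.05, and a line at each median. The median was -1.75 over 27 E-box targets, 0.83 over 13 mesenchymal genes (0.029 without edited replicate 2) and 0.43 over the 8 factors.

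The E-box that ZEB and SNAIL proteins prefer reads CACCTG, or CAGGTG on the other strand. It was counted in RefSeq promoter windows of 300 bases (GRCh38.p14, 250 before and 50 after a transcription start). Of 27305 genes with a window, 24.1% held at least 1 E-box, as did 20.6% of 35116 windows. Of the 27 targets, 13 had a window, and 11 of these held an E-box. The list was made of genes known for such sites, so this share is not a result. All 7 called targets with a window had at least 1, against 4 of 6 targets that were not called. By window the order was the other way, with 8 of 13 (61.5%) for called and 6 of 8 (75.0%) for uncalled targets. *CDH1*, *EPCAM*, *ESRP1* and *ST14* were among the targets without a window. At least 3 E-boxes were found in 0.635% of all windows and at least 5 in 0.0940%. *CLDN7* and *CRB3* were among the 33 windows with at least 5. A match gives the letters only and does not show that a factor was bound.

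The windows below belong to targets that fell and hold several E-boxes, and they were picked after the values were seen. *RAB25*, with 2, was included because it fell most of the targets. *PATJ*, which also fell and has a window with 3, is not shown. They are written 5′ to 3′ on the strand of the gene with the E-boxes in capitals. *CLDN7* encodes a claudin, *CRB3* a protein of the apical Crumbs complex, *RAB25* the GTPase named above and *SH3YL1* a phosphoinositide-binding adaptor. Their regions are chr17:7262429-7262728 (minus strand), chr19:6464021-6464320 (plus strand), chr1:156060910-156061209 (plus strand) and chr2:264343-264642 (minus strand).
CLDN7: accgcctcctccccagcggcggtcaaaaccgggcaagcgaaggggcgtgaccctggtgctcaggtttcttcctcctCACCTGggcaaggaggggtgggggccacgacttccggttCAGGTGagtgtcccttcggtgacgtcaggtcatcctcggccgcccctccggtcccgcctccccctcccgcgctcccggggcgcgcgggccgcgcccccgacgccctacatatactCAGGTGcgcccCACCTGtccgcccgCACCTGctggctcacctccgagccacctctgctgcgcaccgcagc
CRB3: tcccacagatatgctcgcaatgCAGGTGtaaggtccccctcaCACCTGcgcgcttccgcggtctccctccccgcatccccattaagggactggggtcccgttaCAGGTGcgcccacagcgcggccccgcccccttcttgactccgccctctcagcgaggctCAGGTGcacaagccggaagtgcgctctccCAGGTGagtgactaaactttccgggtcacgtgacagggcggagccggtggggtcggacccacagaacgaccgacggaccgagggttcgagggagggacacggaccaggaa
RAB25: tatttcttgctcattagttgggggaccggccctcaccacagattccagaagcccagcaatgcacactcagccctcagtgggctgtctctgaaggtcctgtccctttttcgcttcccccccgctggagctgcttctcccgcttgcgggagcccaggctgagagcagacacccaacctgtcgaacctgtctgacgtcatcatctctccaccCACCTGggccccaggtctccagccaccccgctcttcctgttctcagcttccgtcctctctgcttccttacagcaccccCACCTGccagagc
SH3YL1: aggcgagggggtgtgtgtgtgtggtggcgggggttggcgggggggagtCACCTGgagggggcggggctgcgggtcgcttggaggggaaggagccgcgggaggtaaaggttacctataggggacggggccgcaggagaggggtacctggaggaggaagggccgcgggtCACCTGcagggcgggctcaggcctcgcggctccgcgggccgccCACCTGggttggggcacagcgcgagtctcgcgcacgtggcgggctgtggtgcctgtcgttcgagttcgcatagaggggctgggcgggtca
*CRB3* fell from 37.6 and 28.6 to 3.43 and 2.45 (log2 fold change -3.11 ± 0.25 SE) and *SH3YL1* from 177 and 133 to 33.1 and 35.9 (log2 fold change -2.12 ± 0.21 SE). The adjusted p was 0.0124 for *CRB3* and 0.0167 for *SH3YL1* (limma). *CLDN7* and *CRB3*, with 5 E-boxes each, had smaller changes than *RAB25*, whose window holds 2.

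**Figure D5:**
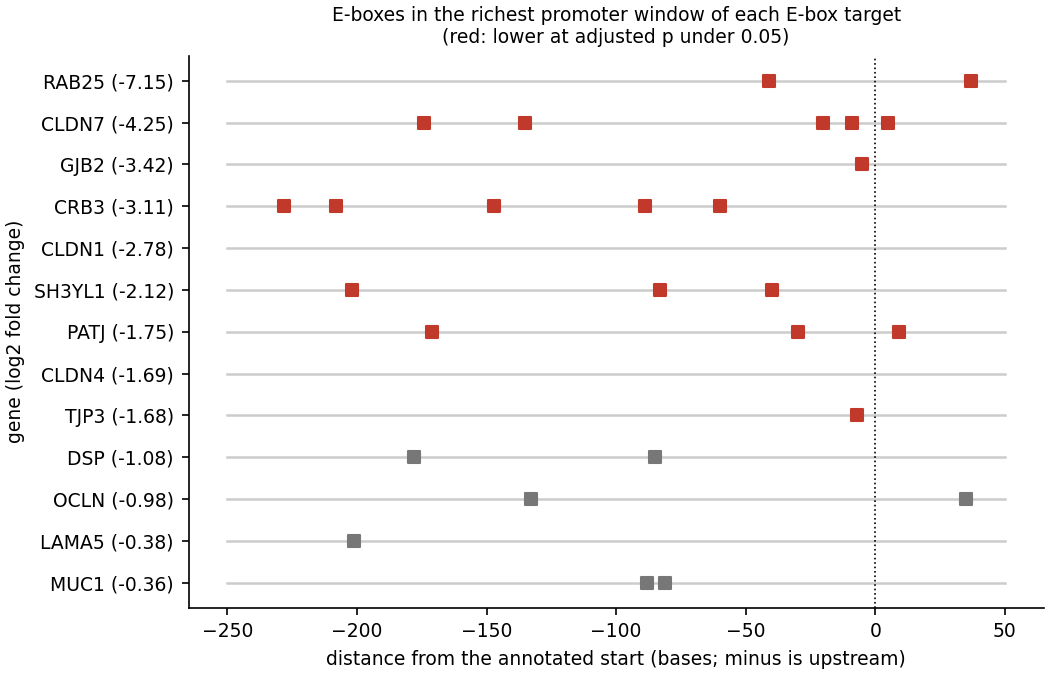
Positions of CACCTG or CAGGTG (squares) in the window with most matches of each of the 13 E-box targets with a window, as distance in bases from the annotated start; genes are ordered by log2 fold change, and red marks an adjusted p under 0.05. *CLDN7* and *CRB3* hold 5 matches each, and *CLDN1* and *CLDN4* hold none.

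Of the 9 EMT factors, 6 had promoter windows (*PRRX1* included), 21 windows in all, and *ZEB1* was the only one with an E-box. It was found in 2 of its windows, 1 of which holds 3. That is 9.52% of the windows of the factors, against 20.6% of all windows, and 1 of 6 genes, against 24.1% of all genes. The window with 3, chr10:31318966-31319265 on the plus strand, is shown because it holds the most E-boxes among the factors. Any link between these letters and the rise of *ZEB1* was not tested.
ZEB1: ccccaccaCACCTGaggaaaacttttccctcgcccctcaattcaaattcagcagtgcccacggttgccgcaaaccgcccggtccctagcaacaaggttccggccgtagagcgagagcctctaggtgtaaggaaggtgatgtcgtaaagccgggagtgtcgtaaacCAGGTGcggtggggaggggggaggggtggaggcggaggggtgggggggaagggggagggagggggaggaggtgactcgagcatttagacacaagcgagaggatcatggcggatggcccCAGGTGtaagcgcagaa

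Mesenchymal genes used as readouts of EMT were less uniform. Of 20 genes, 13 had a row, of which 4 were called higher, 1 lower and 8 not, where 1.33% of all genes were called higher and 3.40% lower. The median log2 fold change of 0.83 was that of *FN1*, which encodes fibronectin and was 171 and 3735 in edited and 645 and 314 in wild-type libraries (SE 1.42). Without edited replicate 2 the median was 0.029, without wild-type replicate 1 it was 0.50 and without wild-type replicate 2 it was 0.31. *CDH2*, which encodes N-cadherin, was 4.52 and 8.87 in edited and 0.429 and 0.0996 in wild-type libraries, the latter on at least 12 and 3 recovered reads (log2 fold change 2.56 ± 0.37 SE, adjusted p = 0.0347 from limma). *VIM*, the intermediate filament vimentin, rose from 257 and 194 to 824 and 1215 (log2 fold change 2.16 ± 0.28 SE, adjusted p = 0.0295 from limma). *S100A4*, a calcium-binding protein of motile cells, rose from 171 and 205 to 1350.5 and 706 (log2 fold change 2.38 ± 0.35 SE). *AXL*, a receptor tyrosine kinase, rose from 8.36 and 4.43 to 21.3 and 29.6 (log2 fold change 1.87 ± 0.34 SE). *COL1A1*, a fibrillar collagen also counted among the fibroblast markers, fell from 15.6 and 28.1 to 3.19 and 5.58 (log2 fold change -2.06 ± 0.37 SE, adjusted p = 0.0490 from limma). These 5 calls went to 0 without edited replicate 1 or either wild-type library, and to 2 without edited replicate 2.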

How the data were processed

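RNA from 2 edited and 2 wild-type MCF12A libraries was poly(A)-selected, prepared with a TruSeq RNA kit and sequenced as single-end reads, per the labels. The authors deposited 1 table of 16811 genes by symbol, whose values are an expression signal. No listed gene had a mean under 0.538 over the 4 libraries. For example, *ZEB2* and *CDH2* lay under that level in wild-type cells, and *GRHL2* and *OVOL1* in edited cells. Such genes thus have a row only through the group where they are higher. The submitters' processing notes name Salmon, HISAT2 and hg38, without versions or roles, and how the values were normalized is not given in the sources used here. After 1 factor per library, the ratios between libraries were those of numbers with up to 3 decimals for 16638 genes (99.0%). For 4276 of all genes (25.4%) they were those of whole numbers with a lowest number up to 3000. The relative tolerance was 1e-09 for these and 3e-11 for the rest. Estimated reads divided by transcript length would give such ratios. The smallest such numbers are given as recovered reads. They are lower bounds, since a common factor cannot be seen, their power of 10 was set from annotated transcript lengths, and they cover counting error only. The values behave as if scaled per length, and count tests were therefore left aside.

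All 16811 genes were fitted with limma 3.58.1 in R 4.3.3 (lmFit, eBayes with trend) on log2(value + 1), with no filter, no replicate block, Benjamini-Hochberg adjustment and a threshold of 0.05. Fold changes are on this scale, which understates changes of low genes, while ratios are of mean values. The study calls the libraries biological replicates, and whether they came from separate colonies or cultures is not given in the sources used here, so p-values measure only the spread between these libraries. Positions and promoter and microRNA sequences came from RefSeq on GRCh38.p14, and overlapping genes from the GENCODE annotation. No protein table was used. Python 3.11.15 with numpy 2.4.6 and pandas 2.3.3 was used.

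The EMT factors and all lists were chosen with earlier results of these data known. Every factor was named. From each list, called genes were named up to 5 in each direction by fold change, together with the best known partners and targets. For each called factor, the 3 genes with the most similar profile were named. As alternatives, the threshold, the variance trend, the replicate block, the pseudocount, the filter on low values and the scaling were changed 1 at a time, and fits without 1 of the libraries were made.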

Additional observations from a re-analysis of the deposited data

How the results depend on the processing

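With limma, the 2 EMT factors called became 0 with a pseudocount of 0.1 (4 at an unadjusted p under 0.05), 0 with a replicate block, 0 at a threshold of 0.001 and 0 without any 1 library. They became 1 with a minimum mean of 10 (*TWIST2*, among 4 tested), 1 after quantile normalization (*ZEB1*) and 1 without the variance trend (*ZEB1*). With a pseudocount of 5, a minimum mean of 1, equal library totals or cyclic loess, both remained called. Over all alternatives, the log2 fold change of *ZEB1* was 1.01 to 3.26 (adjusted p = 0.0257 to 0.182) and that of *TWIST2* 1.18 to 2.00 (adjusted p = 0.0439 to 0.224). The log2 fold change of *SNAI1* was -0.0182 without edited replicate 2 and -0.0255 without wild-type replicate 2 (range -0.0255 to 0.645 without 1 library), and no other factor changed direction. The 795 genes called became 517 with a pseudocount of 0.1, 125 with the replicate block, 0 at 0.001 and 0 to 248 without 1 library (4909 at an unadjusted p under 0.05, and 2796 to 4344 without 1 library). Called partners and regulators went from 4 to 2 with the block, 0 at 0.001 and 0 to 2 without 1 library. E-box targets went from 13 to 0 at 0.001 and 0 to 8 without 1 library. Mesenchymal genes went from 5 to 3 with a pseudocount of 0.1, 3 without the trend, 0 with the block, 0 at 0.001 and 0 to 2 without 1 library. Fewer libraries leave fewer degrees of freedom; otherwise the cause was not tested. Same-numbered libraries did not deviate together (Pearson's r = -0.0927 over genes). Whether any libraries shared a batch or culture was not tested. Equal library totals moved the median of all genes from 0.01 to -0.09. The wild-type values of *ZEB1*, *ZEB2* and *TWIST2* may be limited by read numbers. Their lowest recovered reads were 18, 23.1 and 34, which are lower bounds.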

Other observations

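The profiles over the 4 libraries that were most like those of the called EMT factors were taken by Euclidean distance of centred log2(signal + 1) among 16231 other genes with a mean of at least 1. For *ZEB1* these were *ANXA6*, a calcium-dependent membrane-binding annexin (distance 0.171), *CACNA2D1*, a calcium channel subunit (0.214), and *BAHCC1* (0.258). *ANXA6* was 280 and 306 in edited and 47.5 and 67.5 in wild-type libraries. *CACNA2D1* was 8.52 and 11.2 against 0.827 and 1.46, and *BAHCC1* was 8.88 and 10.9 against 1.18 and 1.47. For *TWIST2* these were *CDC42EP2*, an effector of the GTPase CDC42 (distance 0.0699), *METTL1*, a tRNA methyltransferase (0.123), and AC009945.3 (0.130). Their edited libraries were nearly equal and their wild-type libraries apart, as for *TWIST2*: *CDC42EP2* was 13.0 and 14.1 in edited and 5.25 and 2.67 in wild-type libraries. With 4 libraries, such likeness is a description and was not tested.

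Of 7 other EMT-linked transcription factors with a row, none passed the adjustment and 3 had an unadjusted p under 0.05, against 29.2% of all genes. The edited libraries lay above both wild-type libraries for 3 (*FOXC1*, *FOXC2* and *FOSL1*), below for 2 (*SOX9* and *KLF8*), and overlapped them for *SOX4* and *HMGA2*. Over all genes, 61.6% were separated in this way, 31.4% upwards and 30.2% downwards. *FOSL1*, an AP-1 subunit, was 46.8 and 66.0 in edited and 26.1 and 7.76 in wild-type libraries (log2 fold change 1.88 ± 0.55 SE, adjusted p = 0.102 from limma). *FOXC2*, a forkhead factor, was 4.39 and 18.9 against 3.99 and 0.871 (adjusted p = 0.196 from limma), while *FOXC1*, whose replicates lay close together, had a log2 fold change of 0.31 ± 0.19 (SE; adjusted p = 0.341 from limma). *KLF8*, a zinc-finger factor, was 3.73 and 3.26 in edited and 5.56 and 7.96 in wild-type libraries (adjusted p = 0.125 from limma), and *SOX9* was 2.55 and 3.62 against 6.12 and 4.87 (adjusted p = 0.161 from limma). *HMGA2*, a chromatin protein, was 10.8 and 33.8 against 13.7 and 4.66 (adjusted p = 0.308 from limma). These genes were named after their values were seen.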
